A study of Mus musculus with 10 samples.

Results

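RNA levels of 9 genes of lipoprotein handling and of cholesterol efflux and storage were followed in peritoneal macrophages of C57BL/6 mice. They are the apolipoprotein genes Apoe, Apoc1, Apoc2 and Apoc4, the lipid transfer gene Pltp, the efflux pump genes Abca1 and Abcg1, the lipase gene Lpl and the cholesterol esterification gene Soat1. Each was found by its Ensembl identifier among the 22165 gene rows of the count table, and all 9 passed the filter on low counts. The 10 libraries fall into 4 groups. Knockout mice (LysM-Cre with both alleles of 1 gene floxed, in which cells that express the Cre delete that gene) received IL-4 complexed to its antibody (3 libraries) or saline, labelled basal (2 libraries). Mice with the floxed alleles alone, labelled wild type, received the same IL-4 complex (3 libraries) or saline (2 libraries). Cells were taken 36 hours later by peritoneal lavage and sorted after staining for CD64, ICAM-2 and CD115. The wild-type mice carry the same floxed alleles without Cre, so the Cre is present in knockout mice alone, and LysM-Cre, driven from the lysozyme locus, acts in other myeloid cells too. Whether each library came from a separate mouse is not stated, so the p-values measure the spread between these libraries, which may in part be technical.

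Macrophages cannot break down the sterol ring, so cholesterol from engulfed cells and lipoproteins is either esterified in the endoplasmic reticulum by the enzyme that Soat1 encodes or exported. ABCA1 hands cholesterol and phospholipid to lipid-poor apolipoproteins, ABCG1 adds cholesterol to formed high-density particles, and apolipoprotein E, which macrophages secrete, takes up lipid at the cell surface and is a ligand for lipoprotein receptors. Phospholipid transfer protein, the product of Pltp, remodels those particles, and lipoprotein lipase, the product of Lpl, frees fatty acids from triglyceride-rich lipoproteins with apolipoprotein C-II as its cofactor. Many of these genes are known targets of the liver X receptors (LXRs), nuclear receptors switched on by oxysterols.

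The 4 apolipoprotein genes lie side by side on the minus strand of chromosome 7 (GRCm38 coordinates throughout, GENCODE M21 annotation), in a stretch of 27.6 kb. Apoe lies at chr7:19696109-19699188, followed in the direction of transcription by Apoc1 at chr7:19689481-19692660, Apoc4 at chr7:19678083-19681479 and Apoc2 at chr7:19671579-19677941. Pltp lies at chr2:164839518-164857711, Abca1 at chr4:53030787-53159895 and Soat1 at chr1:156424525-156474331, all on the minus strand. Abcg1 at chr17:31057675-31117988 and Lpl at chr8:68880491-68907448 are on the plus strand. Exons of Pltp overlap those of Ctsa on the other strand, and Ctsa had 1583 to 2962 counts per library. The strand setting of the counting is not given in the sources used here, so reads from the overlap cannot be assigned with certainty. Exons of Apoc2 and Apoc4 overlap Gm44805 on the same strand, a gene that has no row in the table.

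The 250 bases before the annotated start are printed below, 5′ to 3′ on the gene's strand, for the efflux pump gene Abca1 and for 3 genes that fell with IL-4 in knockout macrophages. RefSeq promoter entries (GRCm38.p6) were matched for Apoe, Apoc2, Apoc4, Pltp, Abca1 and Soat1. Capitals in Abca1 mark an E-box (CACGTG) at bases -147 to -142 from the start and, at -67 to -53, a direct repeat of the LXR type, whose parts GGTNA and GGTCA stand 5 bases apart on the opposite strand.
Abca1, chr4:53159896-53160145: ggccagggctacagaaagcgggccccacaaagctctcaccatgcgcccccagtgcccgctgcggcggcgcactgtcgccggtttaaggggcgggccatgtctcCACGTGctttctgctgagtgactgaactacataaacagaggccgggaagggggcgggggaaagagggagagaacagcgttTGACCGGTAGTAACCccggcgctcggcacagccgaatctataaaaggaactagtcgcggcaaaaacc
Apoe, chr7:19699189-19699438: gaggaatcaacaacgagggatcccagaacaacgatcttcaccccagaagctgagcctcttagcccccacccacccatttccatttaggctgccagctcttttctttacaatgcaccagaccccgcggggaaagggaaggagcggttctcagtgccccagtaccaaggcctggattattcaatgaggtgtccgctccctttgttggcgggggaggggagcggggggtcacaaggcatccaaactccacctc
Pltp, chr2:164857709-164857958: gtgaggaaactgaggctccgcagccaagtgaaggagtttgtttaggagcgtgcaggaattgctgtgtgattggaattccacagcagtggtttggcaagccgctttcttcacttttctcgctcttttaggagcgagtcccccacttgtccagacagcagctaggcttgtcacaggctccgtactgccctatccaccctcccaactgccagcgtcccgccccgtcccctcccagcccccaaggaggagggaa
Apoc2, chr7:19677942-19678191: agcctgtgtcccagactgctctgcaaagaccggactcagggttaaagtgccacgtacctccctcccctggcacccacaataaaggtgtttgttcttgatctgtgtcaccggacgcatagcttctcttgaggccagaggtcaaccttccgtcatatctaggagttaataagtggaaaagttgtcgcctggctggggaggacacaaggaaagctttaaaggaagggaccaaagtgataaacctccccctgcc
On either strand, that direct repeat was found in 0.177% and the E-box in 6.02% of all 32851 promoter windows of the same length. The palindrome of TTC and GAA set 4 bases apart, of the kind bound by the IL-4-activated factor STAT6, was in 5.85% of all windows and in no entry of the 6 genes. No other match of the 3 motifs was found in those entries. A match is a string of letters, and nothing about binding of a factor was measured here.

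The libraries held 8762403 to 15024073 counts. Values are given as CPM, the count scaled to a common library size of 1000000, after TMM scaling, an adjustment for libraries that differ in a few abundant genes. The basal knockout libraries held more RNA of other cells, with 11 B cell markers summing to 1231 and 1532 CPM against 138 and 233.9 CPM in basal wild-type libraries. Those B cell sums were 353.1 to 467.7 CPM in knockout and 377.9 to 442.2 CPM in wild-type IL-4 libraries. Sums of 8 mast cell and basophil markers were 158.2 and 262.5 CPM in basal knockout libraries, against 27.1 and 28.95 CPM in basal wild-type libraries, and 1.522 to 2.918 CPM in knockout and 3.191 to 3.989 CPM in wild-type IL-4 libraries, with 3 of the 8 at 0 in the knockout IL-4 group. In knockout IL-4 libraries, the 13 listed markers of monocytes, dendritic cells and small peritoneal macrophages summed to 6956 to 9547 CPM. The same sum was 4875 to 6055 CPM after IL-4 in the wild type. Basal sums were 1502 to 1855 CPM for the knockout, against 633.8 to 1027 CPM for the wild type. Retnla made up most of the IL-4 sums, with a group mean of 6594 CPM for the knockout and 3440 CPM for the wild type. Its basal means were 253.2 and 283.5 CPM. Apart from Retnla, Irf4, Cd209a and Zbtb46, the listed genes had lower group means in the knockout than in the wild type after IL-4. The macrophage genes Adgre1, Csf1r, Fcgr1, Cd68 and Mertk summed to 1509 to 1576 CPM in knockout IL-4 and 1632 to 1843 CPM in wild-type IL-4 libraries. Basal sums were 1601 to 1758 CPM in the knockout and 1387 to 1469 CPM in the wild type. Lyz2, the other listed macrophage gene, was left out of those sums. With it they were 4355 to 5662, 7544 to 8888, 4265 to 11430 and 23290 to 25070 CPM in the same order. Fcgr1 had group means of 10.1 and 10.4 CPM in knockout and wild-type IL-4, against 24.7 and 35.7 CPM in the basal groups. Of the 6, 1 was called higher and 2 lower with IL-4 in the wild type. With IL-4 in the knockout 1 was called lower, as in knockout against wild type without IL-4. Sums of 12 large peritoneal macrophage markers were 11650 to 22430 CPM in knockout and 13300 to 14550 CPM in wild-type IL-4 libraries. In the basal libraries they were 12730 to 13680 CPM in the knockout and 11940 to 17650 CPM in the wild type. Prg4 and F5 were the largest parts, with knockout means of 7526 and 4645 CPM with IL-4, against 4175 and 3239 CPM without. Other markers went the other way. Cxcl13 had means of 49.7 against 1119 CPM in the knockout and 418 against 838 CPM in the wild type. Icam2 had 387 against 619 CPM and 411 against 994 CPM. Of the 12, 1 was called lower in each of the 5 comparisons, and 1 higher in knockout against wild type after IL-4. The 8 listed genes of adipocytes and liver, other sources of these transcripts, summed to 549.3 to 714.3 CPM in knockout IL-4, 775.4 to 914.2 CPM in wild-type IL-4, 675.2 to 722.5 CPM in knockout basal and 919.7 to 1293 CPM in wild-type basal libraries. Nearly all of it was the fatty acid binding protein gene Fabp4 (541 to 1292 CPM), which macrophages express too. Plin1 was at 0.716 to 10.2 CPM and Adipoq at 0 to 0.24 CPM, and Cidec, Alb, Ttr, Apoa1 and Serpina1a had 0 counts in all 10 libraries. Of the 2 of these genes that were tested, 1 was called higher with IL-4 in the knockout. The part of these other cells' RNA in the changes of the 9 genes was not tested.

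IL-4 lowered Apoe in both genotypes, and in knockout macrophages it also lowered Apoc1, Apoc2 and Pltp. The IL-4 effect on Apoc1, Apoc2 and Pltp differed between the genotypes, while Apoc4, Abca1, Abcg1, Lpl and Soat1 passed the threshold in no comparison. Between the genotypes, Apoc2 was lower in knockout macrophages after IL-4 and Pltp was higher in knockout macrophages without it. In edgeR's quasi-likelihood test with Benjamini-Hochberg adjustment over all 11614 genes tested, and a threshold of 0.05, IL-4 against basal in knockout macrophages gave 4 of the 9 genes as lower and 0 as higher, where of all genes 3.51% were lower and 4.09% higher (7.6% in all). In wild-type macrophages IL-4 gave 1 of the 9 as lower and 0 as higher, where of all genes 2.8% were lower and 3.26% higher (6.06% in all). Knockout against wild type after IL-4 gave 1 of the 9 as lower and 0 as higher, where of all genes 0.474% were lower and 0.353% higher (0.827% in all). Without IL-4 knockout against wild type gave 1 of the 9 as higher and 0 as lower, where of all genes 2.61% were higher and 1.53% lower (4.14% in all). The interaction, which subtracts the IL-4 effect of the wild type from that of the knockout, was called negative for 3 of the 9 and positive for 0, where of all genes it was negative for 1.78% and positive for 1.02% (2.81% in all). The comparisons share libraries, so these counts are not independent of one another. The 9 genes were also chosen with earlier results of these data known, so the shares are no test of the set.

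The median log2 change of the 9 genes with IL-4 was -1.03 in knockout macrophages, against a median of -0.002 over all genes, and 0.08 in wild-type macrophages, against 0 over all genes. For knockout against wild type the median of the 9 was -0.25 after IL-4 and 0.23 without it, with medians over all genes of 0.02 and -0.02. In the plot of fitted differences, the calls belong to Apoe, Apoc1, Apoc2 and Pltp, and the intervals of Abcg1, Lpl and Soat1 include 0 in every comparison. Bulk RNA cannot tell fewer cells of a type from less RNA per cell.

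**Figure D1:**
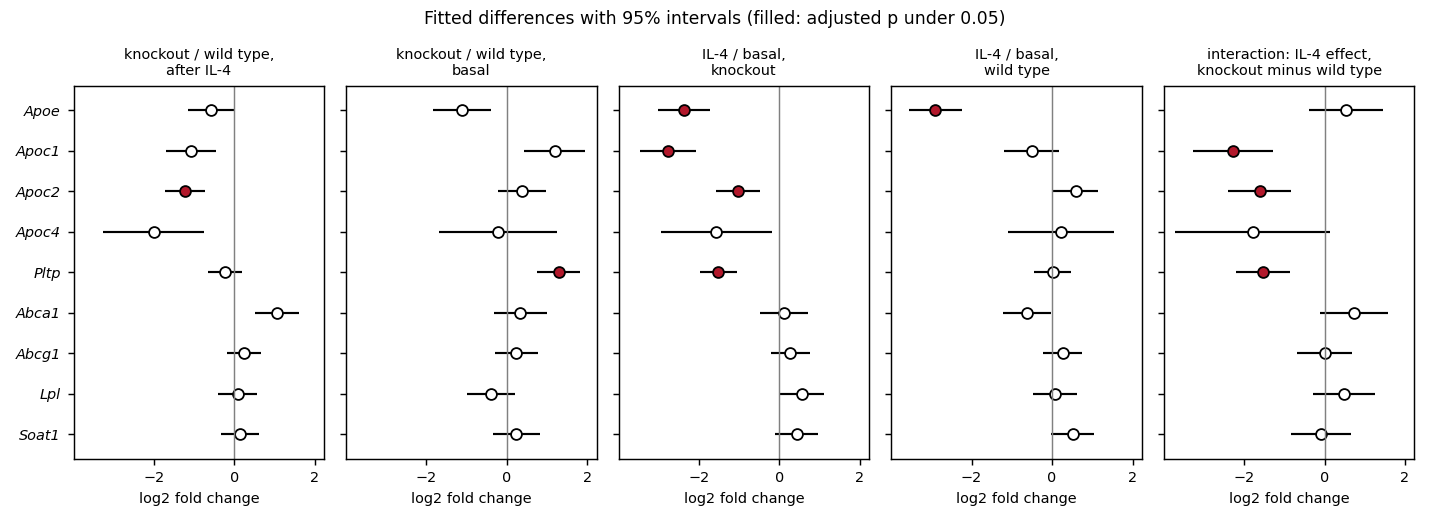
Fitted log2 fold changes of the 9 genes with 95% intervals, 1 panel per comparison, with filled points where the adjusted p was under 0.05. The IL-4 panel of the knockout has 4 filled points, all below 0, and that of the wild type has 1, Apoe.

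Per kilobase of annotated exon, Apoe was the most abundant of the 9 in every group, with 1068 ± 64.5 CPM per kb in knockout IL-4, 1591 ± 231 in wild-type IL-4, 5532 ± 202 in knockout basal and 11944 ± 7851 in wild-type basal libraries (mean ± SD, n = 3, 3, 2 and 2). Lpl came next in both IL-4 groups, at 289 ± 72.1 CPM per kb in the knockout and 273 ± 5.84 in the wild type (SD, n = 3 each). In wild-type basal libraries Lpl (259 ± 92.4 CPM per kb) and Apoc1 (209 ± 65.1) lay within their spread of each other (SD, n = 2 each). In the knockout basal group the means of Apoc1 (475 ± 267 CPM per kb) and Pltp (308 ± 65.1) were above that of Lpl (197 ± 51.5, SD, n = 2 each). The spread of Apoc1 overlaps those of both, and those of Pltp and Lpl overlap slightly. In wild-type IL-4 libraries Apoc1, Apoc2 and Pltp lay within their spread of one another, at 147 ± 32.8, 139 ± 28.4 and 127 ± 19.2 CPM per kb (SD, n = 3). After IL-4 in the knockout, Pltp was at 108 ± 6.87 CPM per kb, above Apoc1 (69.1 ± 6.88), Apoc2 (59.0 ± 11.4) and Soat1 (55.7 ± 16.6), which did not separate (SD, n = 3). The pumps were low in all groups, Abca1 between 8.69 and 18.2 and Abcg1 between 9.53 and 13.5 CPM per kb as group means. Apoc4 was the lowest throughout, between 0.674 and 2.78 CPM per kb. These levels depend on the annotated exon length, since the transcripts in use were not measured.

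**Figure D2:**
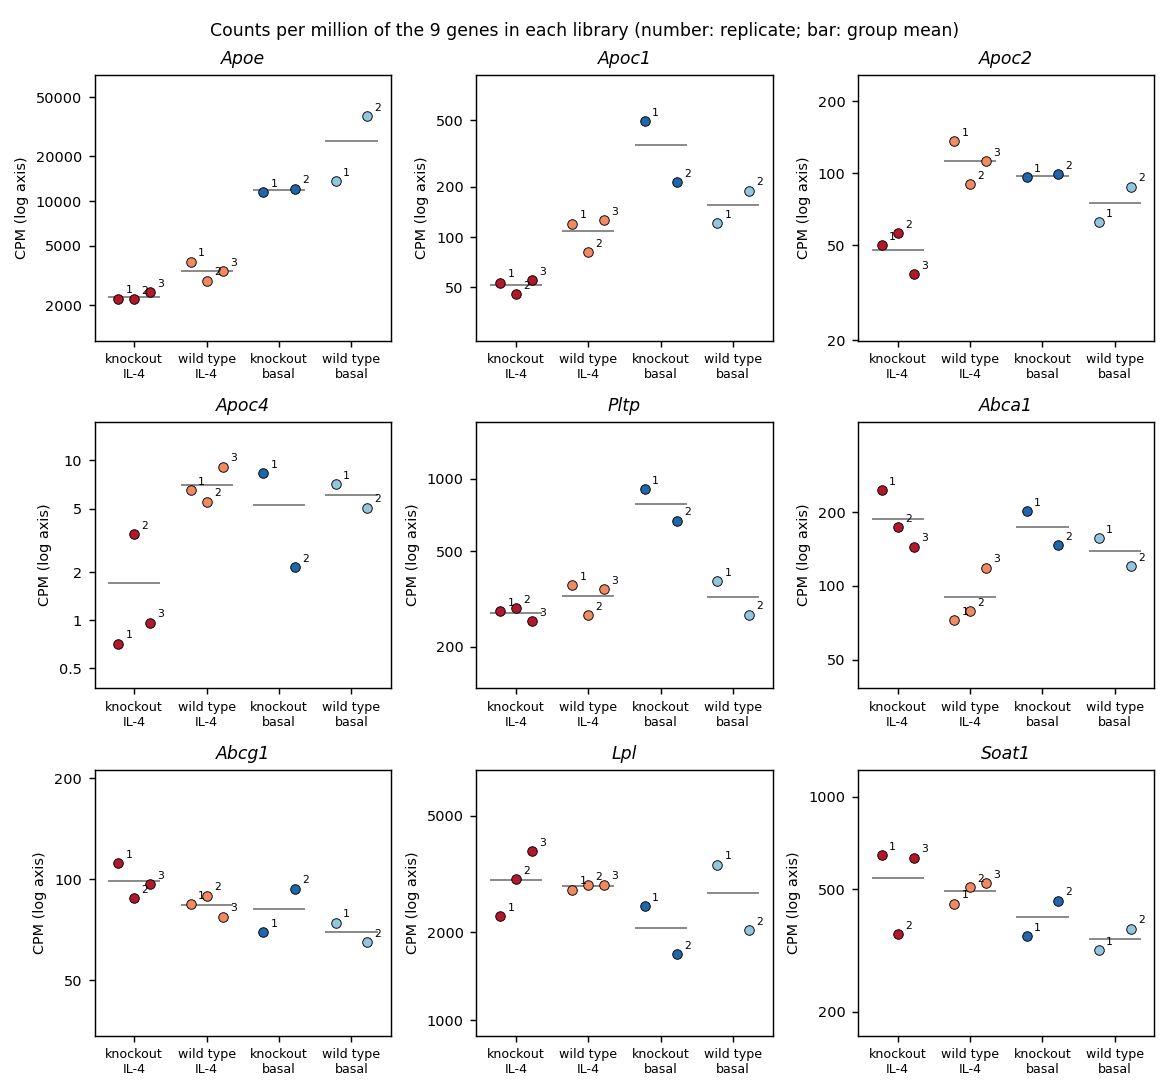
CPM of each of the 9 genes in each library on a log axis, by group, with the replicate number beside each point and a bar at the group mean. Apoe separates the IL-4 libraries (2193 to 3910 CPM) from the basal ones (11521 to 37405 CPM), and the 2 wild-type basal libraries stand far apart.

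Apoe, the main apolipoprotein that macrophages secrete, was among the most abundant transcripts of these cells without IL-4. By count it ranked at 2 among all genes in both knockout basal libraries, and at 3 and 1 in the wild-type basal libraries. With IL-4 its rank was 34 to 42 in the knockout and 19 to 24 in the wild type. With IL-4 it had 2214, 2193 and 2442 CPM in knockout macrophages, against 11521 and 12132 CPM in knockout basal macrophages. In wild-type macrophages it had 3909.9, 2923 and 3374 CPM with IL-4, against 13666 and 37405 CPM without. The IL-4 and basal libraries did not overlap in either genotype. IL-4 lowered Apoe by 2.37 ± 0.30 on the log2 scale in the knockout (SE, 5.18-fold, adjusted p = 3.02e-04) and by 2.91 ± 0.31 in the wild type (SE, 7.51-fold, adjusted p = 1.52e-04). Both calls held in each of the 10 fits that left out 1 library. The size in the wild type rested on which basal library was used: it was 4.02-fold without the second wild-type basal library and 10.9-fold without the first. The difference of the IL-4 effects was 0.54 ± 0.43 (SE, log2, adjusted p = 0.617), with a 95% interval from -0.38 to 1.45, and it turned to -0.37 without the second wild-type basal library.

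Between the genotypes, Apoe did not pass the threshold. After IL-4 the 3 knockout libraries all lay below the 3 wild-type libraries, with a fitted log2 change of -0.58 ± 0.27 (SE, adjusted p = 0.353) and a 95% interval from -1.16 to 0.01. Without IL-4 both knockout libraries again lay below both wild-type ones, at -1.11 ± 0.34 (SE, log2, adjusted p = 0.0844). That value depended on which wild-type basal library was kept, being -0.21 (adjusted p = 0.812) without the second and -1.65 (adjusted p = 0.00127) without the first. DESeq2 gave an adjusted p of 0.0323 for the same comparison.

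Apoc1 encodes a small apolipoprotein that exchanges between particles and slows the uptake of remnants by receptors. It had 53.2, 45.6 and 55.4 CPM in knockout IL-4 libraries, against 494 and 213 CPM in knockout basal libraries. In wild-type macrophages it had 121, 81.2 and 126 CPM with IL-4, against 121 and 189 CPM without. The knockout groups stood apart by a wide margin, and the wild-type groups overlapped. IL-4 lowered Apoc1 by 2.78 ± 0.33 on the log2 scale in the knockout (SE, 6.87-fold, adjusted p = 1.32e-04), and by 4.14-fold without the first knockout basal library, with the call kept in all 10 fits without 1 library. In the wild type the value was -0.51 ± 0.32 (SE, log2, adjusted p = 0.394). The difference of the 2 effects was -2.27 ± 0.46 (SE, log2, 4.83-fold, adjusted p = 0.0140). It missed the threshold without the first knockout basal library, at 2.91-fold (adjusted p = 0.0931), and without the first wild-type basal library (adjusted p = 0.0574).

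Set knockout against wild type, Apoc1 lay on opposite sides with and without IL-4, and neither difference passed the threshold. After IL-4 all knockout libraries were lower, at -1.09 ± 0.29 (SE, log2, adjusted p = 0.101). Without IL-4 both knockout libraries were higher, at 1.19 ± 0.36 (SE, log2, adjusted p = 0.0801). DESeq2 called both, with adjusted p-values of 0.0219 and 0.0247. With library totals as the scale, edgeR's test also called the difference without IL-4 (adjusted p = 0.032). Without the second knockout basal library the log2 changes were -1.09 after IL-4 and 1.67 without it. Without the first knockout basal library the change without IL-4 was 0.46 (1.37-fold), the lowest of the 10 fits without 1 library. The size of the basal difference thus depended on which knockout basal library was kept. The first knockout basal library, with the higher Apoc1 of 494 CPM, had 2664 CPM of the macrophage lysozyme gene Lyz2, and the second had 9675 CPM, against 23600 and 21903 CPM in the wild-type basal libraries. Lyz2 holds the Cre in the knockout mice. In edgeR's test Lyz2 also fell with IL-4 in the wild type, 3.52-fold (adjusted p = 0.0123), to 5912 to 7046 CPM. That call was lost without the first or the second wild-type basal library, at log2 changes of -1.75 and -1.87. In the knockout Lyz2 was at 2845 to 4096 CPM with IL-4 (log2 change -0.83 ± 0.37, SE, adjusted p = 0.203). The part of the B cell, mast cell and Lyz2 differences in the Apoc1 values was not tested.

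Apoc2 encodes the cofactor that lipoprotein lipase needs. It had 49.9, 56.1 and 37.9 CPM in knockout IL-4 libraries, against 136, 90.0 and 112 CPM in wild-type IL-4 libraries. Without IL-4 it had 96.5 and 99.0 CPM in the knockout, against 62.4 and 88.0 CPM in the wild type. After IL-4 each knockout library lay below each wild-type one, and without it each lay above. Apoc2 was 2.35-fold lower in the knockout after IL-4 (log2 change -1.23 ± 0.23, SE, adjusted p = 0.0189), the one gene of the 9 called in that comparison. The 10 listed neutrophil markers, led by S100a9 and S100a8, summed to 21.31 to 33.82 CPM in knockout IL-4 and 82.46 to 88.76 CPM in wild-type IL-4 libraries, and to 33.63 to 56.56 CPM in knockout basal and 13.13 to 37.51 CPM in wild-type basal ones. Of the 5 neutrophil markers tested, 2 were called lower in the knockout after IL-4, 2 higher with IL-4 in the wild type and 2 lower in the difference of the IL-4 effects. Their part in the Apoc2 values was not tested. The call was lost, with the same sign, without the third knockout IL-4 library (adjusted p = 0.0792), the first wild-type IL-4 library (adjusted p = 0.133) or the third (adjusted p = 0.0793). Without IL-4 the log2 change was 0.38 ± 0.28 (SE, adjusted p = 0.544).

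IL-4 lowered Apoc2 by 1.03 ± 0.26 on the log2 scale in the knockout (SE, 2.04-fold, adjusted p = 0.0224), and in the wild type the value was 0.58 ± 0.26 in the other direction (SE, log2, adjusted p = 0.212). The knockout call was lost without either knockout basal library (adjusted p = 0.107 and 0.134) or the third knockout IL-4 library (adjusted p = 0.0712). The difference of the effects was -1.61 ± 0.37 (SE, log2, 3.06-fold, adjusted p = 0.0255). It missed the threshold in 5 of the 10 fits without 1 library, with adjusted p-values between 0.0559 and 0.0953, namely those without the first or second knockout basal library, the first wild-type basal library, or replicate 1 or 3 of wild-type IL-4.

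Apoc4, a gene expressed mainly in liver, was near the limit of detection, with 7 to 89 counts per library. It had 0.711, 3.46 and 0.961 CPM in knockout IL-4 libraries, against 6.51, 5.52 and 9.16 CPM in wild-type IL-4 libraries. The basal libraries had 8.33 and 2.15 CPM in the knockout, against 7.08 and 5.05 CPM in the wild type. After IL-4 the knockout libraries all lay below the wild-type ones, and the groups overlapped in the other 3 comparisons, which are knockout against wild type without IL-4 and IL-4 against basal in each genotype. The log2 change after IL-4 was -2.01 ± 0.59 for knockout against wild type (SE, adjusted p = 0.130), and it was called without the second knockout IL-4 library (-3.04, adjusted p = 0.0358) and by DESeq2 (adjusted p = 0.0353). IL-4 against basal in the knockout gave -1.57 ± 0.64 (SE, log2, adjusted p = 0.159), which without the same library became -2.61 (adjusted p = 0.0255). Without the first knockout basal library it was only -0.30.

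Of 11 names listed around the cluster, which hold Nectin2 also under its older name Pvrl2, 10 had a row in the table and 9 were tested. Of these genes, 0 of the 9 were called in each of the 5 comparisons, where 0.827% to 7.6% of all genes were called. They include Tomm40, a mitochondrial import channel, next to Apoe and Clptm1 next to Apoc2. With IL-4, Tomm40 had a log2 change of -0.48 in the knockout (adjusted p = 0.325) and -0.34 in the wild type (adjusted p = 0.541). Clptm1 was at 0.11 in both (adjusted p = 0.914 each). Nectin2, beyond Tomm40, was at -0.85 in the knockout and 1.75 in the wild type (adjusted p = 0.675 and 0.424), with 0.0894 to 8.44 CPM across the libraries. The nearest to the threshold was Gemin7, at -0.85 in the wild type (adjusted p = 0.0731).

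**Figure D3:**
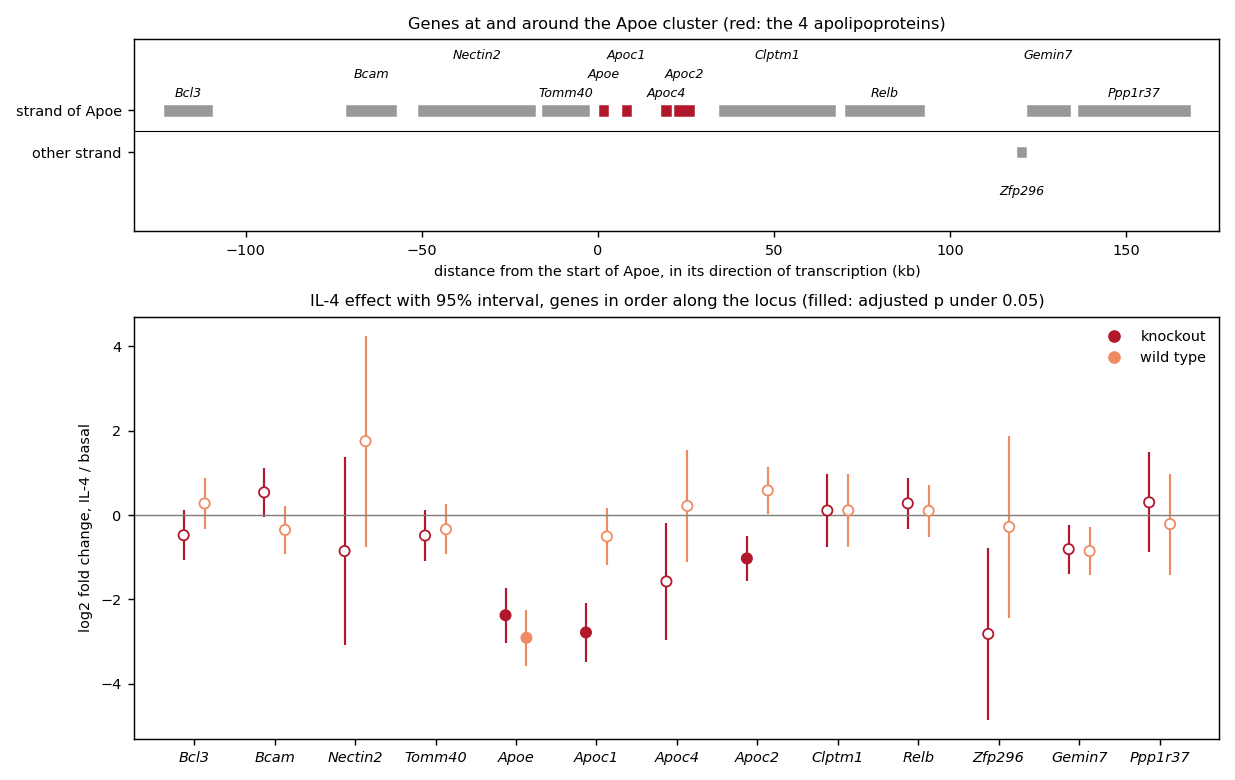
Top, the genes at and around the Apoe cluster by distance from the start of Apoe in kb, on the strand of Apoe or the other. Bottom, the log2 change with IL-4 and its 95% interval for each gene in the knockout and the wild type, in order along the locus, filled where the adjusted p was under 0.05. Filled points belong to Apoe in both genotypes and to Apoc1 and Apoc2 in the knockout.

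Pltp encodes the phospholipid transfer protein. It had 281, 289.7 and 256 CPM in knockout IL-4 libraries, against 906 and 670.3 CPM in knockout basal libraries. In wild-type macrophages it had 361, 270.2 and 348 CPM with IL-4, against 376 and 272 CPM without. The knockout basal libraries stood alone, above all the other 8. Pltp was 2.44-fold higher in basal knockout than in basal wild-type macrophages (log2 change 1.28 ± 0.25, SE, adjusted p = 0.00715), a call that was lost without the first knockout basal (adjusted p = 0.0955) or the second wild-type basal library (adjusted p = 0.0858). IL-4 lowered it by 1.52 ± 0.22 on the log2 scale in the knockout (SE, 2.86-fold, adjusted p = 5.36e-04), in each of the 10 fits without 1 library too. In the wild type the IL-4 effect was 0.01 ± 0.22 (SE, log2, adjusted p = 0.984), with a 95% interval from -0.46 to 0.48.

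The IL-4 effects on Pltp differed by -1.53 ± 0.32 (SE, log2, 2.89-fold, adjusted p = 0.0140), and this was lost without the same 2 libraries (adjusted p = 0.0931 without the first knockout basal and 0.0706 without the second wild-type basal library). After IL-4 the genotypes overlapped, at -0.24 ± 0.20 (SE, log2, adjusted p = 0.611). In the comparison of basal knockout with basal wild type where Pltp was higher, all 11 B cell markers tested and 4 of 8 mast cell and basophil markers were called higher too. With IL-4 in the knockout, where Pltp fell, 11 of 11 B cell and 7 of 8 mast cell and basophil markers were called lower. Their part in the Pltp values was not tested.

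Abca1, the pump that loads lipid-poor apolipoproteins, had 246, 174 and 145 CPM in knockout IL-4 libraries, against 72.6, 78.9 and 119 CPM in wild-type IL-4 libraries. The basal libraries had 202 and 147 CPM in the knockout, against 156 and 120.4 CPM in the wild type. After IL-4 each knockout library lay above each wild-type library, and the basal groups overlapped. The fitted difference after IL-4 was 2.09-fold (log2 change 1.06 ± 0.26, SE, 95% interval from 0.52 to 1.61), and its adjusted p of 0.0622 missed the threshold. DESeq2 called it (adjusted p = 0.00521). With IL-4 in the wild type Abca1 was at -0.62 ± 0.28 (SE, log2, adjusted p = 0.213), with every IL-4 library below both basal ones, and in the knockout at 0.11 ± 0.28 (SE, log2, adjusted p = 0.866). The difference of the IL-4 effects was 0.73 ± 0.40 (SE, log2, adjusted p = 0.411).

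Abcg1, the pump that adds cholesterol to formed particles, varied little. It had 112, 87.8 and 96.6 CPM in knockout IL-4, 84.3, 89.2 and 77.4 CPM in wild-type IL-4, 69.6 and 93.6 CPM in knockout basal, and 74.1 and 65.0 CPM in wild-type basal libraries. The genotypes overlapped both with and without IL-4, and the wild-type IL-4 libraries lay just above the wild-type basal ones. Its fitted log2 changes lay between 0.01 and 0.27 in the 5 comparisons, and the widest 95% interval, that of the interaction, ran from -0.68 to 0.69. The lowest of the adjusted p-values was 0.523, for IL-4 in the knockout.

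Lpl, the secreted lipase that macrophages make in abundance, had 2266, 3029.95 and 3778 CPM in knockout IL-4 libraries, against 2447 and 1684 CPM in knockout basal libraries. In wild-type macrophages it had 2794, 2894 and 2906 CPM with IL-4, against 3398 and 2028 CPM without. The groups overlapped in both genotypes. The nearest to the threshold was IL-4 in the knockout, at 0.55 ± 0.26 (SE, log2, adjusted p = 0.221), with a 95% interval from -0.001 to 1.10. In the wild type the IL-4 value was 0.08 ± 0.26 (SE, log2, adjusted p = 0.901), with a 95% interval from -0.47 to 0.62. Beside the fall of its cofactor Apoc2 in knockout IL-4 libraries, Lpl itself differed between the genotypes after IL-4 by 0.08 ± 0.23 (SE, log2, adjusted p = 0.914), with a 95% interval from -0.41 to 0.56.

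Soat1, the enzyme that esterifies cholesterol for storage in droplets, had 646, 358 and 634 CPM in knockout IL-4 libraries, against 352 and 459 CPM in knockout basal libraries. In wild-type macrophages it had 449, 509 and 523 CPM with IL-4, against 317 and 373 CPM without. The wild-type groups did not overlap, and the second knockout IL-4 library fell within the basal range. IL-4 gave 0.52 ± 0.25 in the wild type and 0.43 ± 0.25 in the knockout (SE, log2), and neither passed the threshold (adjusted p = 0.255 and 0.329). The genotypes differed by 0.14 ± 0.22 after IL-4 and 0.23 ± 0.27 without it (SE, log2, adjusted p = 0.817 and 0.729).

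Other genes were taken from 9 role lists with 105 names, of which 80 were tested. These lists cover lipid uptake, storage and efflux and their regulators, and also the neighbours of the Apoe cluster described above. The neighbours gave 9 of the 80 and none of the calls. With IL-4 in the knockout, 4 of the 80 were called higher and 2 lower, where 7.6% of all genes tested were called. With IL-4 in the wild type, 7 were called higher and 2 lower, where 6.06% of all genes were called. Knockout against wild type gave 0 higher and 1 lower after IL-4, where 0.827% of all genes were called, and 3 higher and 2 lower without it, where 4.14% were called. The difference of the IL-4 effects gave 1 higher and 4 lower, where 2.81% of all genes were called. The medians of the 80 lay between -0.06 and 0.06 in the 5 comparisons, and those of all genes between -0.02 and 0.02. Of the 10 regulators listed, which include the LXR genes Nr1h3 and Nr1h2 and the sterol factors Srebf1 and Srebf2, none passed the threshold in any comparison, with adjusted p-values of 0.0571 and above. Nr1h3, the LXR isoform of macrophages and liver, was at -0.40 ± 0.63 for knockout against wild type after IL-4 and at -0.51 ± 0.69 and -0.72 ± 0.70 for IL-4 in the wild type and the knockout (SE, log2), so that large changes could not have been told from none.

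Angptl4, a secreted inhibitor of lipoprotein lipase, had 12, 5 and 21 counts in knockout IL-4 libraries, against 106, 97 and 73 counts in wild-type IL-4 libraries. Without IL-4 it had 33 and 29 counts in the knockout, against 0 and 1 count in the wild type. It was lower in the knockout after IL-4 (log2 change -2.80 ± 0.55, SE, 6.96-fold, adjusted p = 0.0252), and was the only gene of the 80 called there. That call was lost without the second knockout IL-4 library (adjusted p = 0.0555) or any one of the wild-type IL-4 libraries (adjusted p = 0.0667 to 0.144). The ratio of wild-type IL-4 to wild-type basal libraries was 168, with a 95% counting interval from 29.9 to 6660.0, and that of knockout basal to wild-type basal libraries was 67.6, with an interval from 11.7 to 2710.0. Both rest on the single count in the wild-type basal group, and the intervals cover counting error only. The 2 increases passed the threshold (adjusted p = 6.54e-04 for IL-4 in the wild type and 0.00378 for the knockout without IL-4).

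Scd1, a desaturase of fatty acids and a known LXR target, had 12.9, 11.1 and 8.89 CPM in knockout IL-4 libraries, against 62.2 and 80.4 CPM in knockout basal libraries. The wild-type libraries had 9.98, 19.1 and 10.5 CPM with IL-4, against 5.29 and 7.11 CPM without. As for Pltp, the knockout basal libraries stood above all others. Scd1 was 11.5-fold higher in basal knockout than in basal wild-type macrophages (log2 change 3.52 ± 0.38, SE, adjusted p = 9.40e-05), and IL-4 lowered it 6.50-fold in the knockout (-2.70 ± 0.32, SE, adjusted p = 9.58e-05), in each fit without 1 library. Stab1, a scavenger receptor, was also highest there, with 40.9 ± 1.5 CPM in knockout basal (SD, n = 2) and group means between 16.3 and 28.4 CPM elsewhere, and it was 2.42-fold higher in basal knockout than in basal wild-type macrophages (adjusted p = 0.0167). That call was lost without either knockout basal library or the first wild-type basal library (highest adjusted p = 0.111). IL-4 lowered Stab1 2.51-fold in the knockout (adjusted p = 0.00390), in each fit without 1 library.

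Among other transporters, Abcg2, an exporter of varied compounds, was nearly absent from the knockout basal libraries, with 5 and 4 counts. It had 40, 50 and 91 counts in the knockout with IL-4. The wild-type libraries had 86, 68 and 73 counts with IL-4, against 64 and 58 counts without. It was 12.1-fold lower in basal knockout than in basal wild-type macrophages (log2 change -3.60 ± 0.61, SE, adjusted p = 0.00260), and IL-4 raised it 11.2-fold in the knockout (adjusted p = 0.00170). Abca6, an ABC transporter related to Abca1, rose 3.46-fold with IL-4 in the wild type, to 26.5 ± 3.6 CPM (SD, n = 3) against 7.65 ± 2.14 CPM (SD, n = 2; adjusted p = 0.00372), and its level in the knockout was 16.2 ± 3.9 CPM with IL-4 (SD, n = 3) and 16.7 ± 2.9 CPM without (SD, n = 2). Stard3, which tethers late endosomes and carries sterol, was 2.30-fold lower in basal knockout than in basal wild-type macrophages (adjusted p = 0.0284), a call lost when any one of the 4 basal libraries was left out (highest adjusted p = 0.218) and with library totals as the scale (adjusted p = 0.0578).

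In the list of 17 lysosomal and intracellular cholesterol genes, 1 was called higher with IL-4 in the knockout, where 4.09% of all genes were, and 2 in the wild type, where 3.26% were, and their median log2 change was -0.09 in the knockout and -0.06 in the wild type. Lipa, the lysosomal acid lipase that frees cholesterol from engulfed esters, rose 1.84-fold in the knockout (534 ± 113 CPM with IL-4, n = 3, and 289.6 ± 65.2 CPM without, n = 2, SD; adjusted p = 0.0321). In the wild type it rose 2.10-fold (509 ± 38 CPM with IL-4, n = 3, and 242 ± 46 CPM without, n = 2, SD; adjusted p = 0.0148). Plin2, a coat protein of lipid droplets, rose 2.08-fold in the wild type (adjusted p = 0.0136), and Sort1, a sorting receptor, 4.53-fold (adjusted p = 0.00906), with a spread of 62.5 to 171 CPM over the 3 wild-type IL-4 libraries and 2.89-fold without the highest of them. Other IL-4 calls in the wild type included the efferocytosis receptor gene Mertk (1.72-fold higher, adjusted p = 0.0351), the small GTPase gene Rhob (2.13-fold higher, adjusted p = 0.0370) and the apolipoprotein B48 receptor gene Apobr (3.01-fold lower, adjusted p = 0.0435). In the knockout they were Arl4c, a small GTPase gene and LXR target (2.04-fold higher, adjusted p = 0.0284), and Smpdl3a, a phosphodiesterase gene and LXR target (1.82-fold higher, adjusted p = 0.0331). Of the genes in this paragraph, none kept its call in all of the 10 fits without 1 library: the calls were lost in 2 to 8 of them, always including at least 1 basal library of the genotype compared.

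**Figure D4:**
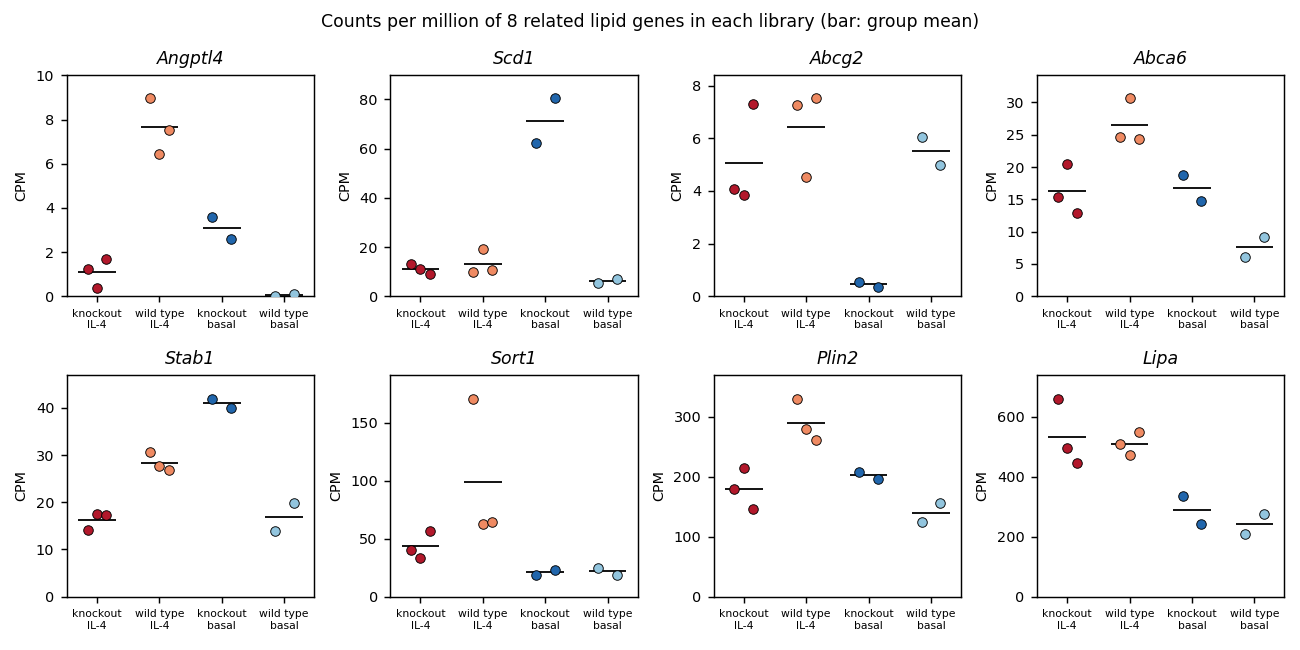
CPM of 8 related lipid genes with calls in each library, by group, with a bar at the group mean and each axis starting at 0. Scd1 and Stab1 are highest in the knockout basal libraries, and Abcg2 is lowest there.

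Genes whose pattern over the 10 libraries was most like that of a changed gene were found by the root mean square difference of log2 CPM after centring each gene, among genes that averaged at least 10 CPM. The nearest to Apoe were H2-Q7, a class I histocompatibility gene (0.456), Cd63 (0.615) and Clec4d (0.615). The nearest to Apoc1 were Coro1a (0.488), Wfdc17 (0.489) and Pgrmc1 (0.515). Apoc2 had a closer match in Fcgrt, the neonatal Fc receptor gene (0.173), then Bop1 (0.219) and Herpud1 (0.237). For Pltp they were Prkd2 (0.252), Zbtb16 (0.252) and Rassf2 (0.259). The gene distances describe these libraries and carry no test.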

How the data were processed

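Messenger RNA of sorted peritoneal macrophages was sequenced in 10 libraries, extracted with RNeasy columns per the labels' protocols. Per the submitters' processing notes, alignment to mm10 used STAR and counting per gene used HTSeq; versions, annotation and strand setting are not given in the sources used here. The authors deposited raw counts per gene. Of 22165 identifiers, 21745 received a symbol from GENCODE M21, and 7409 had 0 counts throughout. No 2 columns were identical.

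Counts were fitted with edgeR 4.0.16 (R 4.3.3, limma 3.58.1): TMM factors, filterByExpr (minimum count 10, minimum total 15), 4 group means, robust quasi-likelihood with 6 residual degrees of freedom, two-sided, Benjamini-Hochberg over 11614 genes, threshold 0.05. The common biological coefficient of variation was 28.4%. CPM are counts scaled to a TMM-adjusted library size of 1000000. The code was tested on simulated data. Alternatives were DESeq2 1.42.0 and its size factors, library totals, no filter, a replicate block and leaving out each library. Replicate numbers were not used to pair the libraries in the main fit.

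The 9 genes and all lists were chosen with earlier results of these data known. Named were all 9 genes, Lyz2 and, from each role list, the called genes, up to a fixed number per list and comparison. The targeted gene and 1 listed gene are not reported here.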

Additional observations from a re-analysis of the deposited data

Results flagged for a closer look

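The interaction test (edgeR's quasi-likelihood test, adjusted p under 0.05) called a different IL-4 effect in the knockout for 3 of the 9 genes followed. Of the 80 genes tested from the role lists, it called 1 positive and 4 negative. Over all genes 2.81% passed. The genes from the role lists are described because they were called, so their presence here is no separate result. The 3 are Apoc1 (log2 difference -2.27, adjusted p = 0.0140), Apoc2 (-1.61, adjusted p = 0.0255) and Pltp (-1.53, adjusted p = 0.0140). Each missed the threshold without the first knockout basal library (adjusted p = 0.0931 for Apoc1, 0.0770 for Apoc2 and 0.0931 for Pltp). Those called from the role lists are Scd1 (-3.80, adjusted p = 5.93e-04), Stab1 (-2.08, adjusted p = 0.00488), Abca6 (-1.83, adjusted p = 0.0275), Abcg2 (3.26, adjusted p = 0.0211) and Angptl4 (-8.59, adjusted p = 9.59e-04). The fitted value of Angptl4 rests on the single count in its wild-type basal libraries and depends on the prior count, so its size is no measure of the change. Abca6 missed the threshold in 5 and Abcg2 in 4 of the 10 fits without 1 library, with adjusted p-values up to 0.121 and 0.122.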

How the results depend on the processing

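Of 45 values of the 9 genes under 15 alternatives each (675 in all), 616 kept their direction and their side of the threshold, 18 lost and 17 gained a call, and 24 changed sign, none of them a called value. Of the 10 called values, 4 stayed called whichever single library was left out.

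Without the filter on low counts the number of genes called was 505 in place of 96 for knockout against wild type after IL-4, 1034 in place of 481 without IL-4, 1209 in place of 704 for IL-4 in the wild type, 1423 in place of 883 in the knockout and 819 in place of 326 for the interaction. DESeq2 called 385, 841, 1144 and 594 for knockout against wild type after IL-4 and without it, IL-4 in the wild type and the interaction. Both gave 4 of the 9 genes after IL-4 and 3 without it for knockout against wild type, in place of 1 each, and library totals gave 2 without IL-4. With library totals the split of all calls (higher, lower) was 421 and 110 in place of 303 and 178 for knockout against wild type without IL-4, 481 and 256 in place of 379 and 325 for IL-4 in the wild type, 386 and 532 in place of 475 and 408 in the knockout, and 92 and 275 in place of 119 and 207 for the interaction. That scale put the median of all genes at 0.13 for knockout against wild type without IL-4, -0.11 for IL-4 in the knockout and -0.17 for the interaction. Signs turned for Abcg1 in the interaction (-0.17 with library totals) and Pltp with IL-4 in the wild type (-0.0067 without the filter).

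Leaving out each library gave 21 to 129 genes called for knockout against wild type after IL-4, 208 to 550 without it, 302 to 764 for IL-4 in the wild type, 327 to 931 in the knockout and 182 to 397 for the interaction. Of the 9 genes, 0 to 2, 0 to 2, 1 to 1, 3 to 5 and 0 to 3 were called in the same order. The log2 changes that turned sign spanned, for knockout against wild type after IL-4, -0.11 to 0.24 (Lpl) and -0.0031 to 0.37 (Soat1), and without IL-4, -1.49 to 0.46 (Apoc4), -0.0001 to 0.43 (Abcg1) and -0.72 to 0.0358 (Lpl). For IL-4 in the wild type they spanned -0.0108 to 0.49 (Apoc4), -0.21 to 0.28 (Pltp) and -0.25 to 0.51 (Lpl), in the knockout -0.14 to 0.36 (Abca1) and -1.47 to 0.39 (Lyz2), and for the interaction -0.37 to 1.07 (Apoe), -0.19 to 0.24 (Abcg1) and -0.27 to 0.14 (Soat1).

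With the replicate number as a block, 554 genes in place of 883 were called for IL-4 in the knockout, where Apoc2 (adjusted p = 0.0706), Lipa, Arl4c and Smpdl3a lost their calls, as did Apobr, Mertk and Rhob for IL-4 in the wild type. What the replicate numbers stand for is not stated. After removal of the group means, 13 same-numbered pairs had correlations of -0.11 to 0.06, and 0 libraries correlated best with their own number. With so few libraries per group, that check cannot settle whether same-numbered libraries had anything in common. The cause of these changes was not tested. Groups of 2 libraries limit the precision of every basal value, and the 7 to 89 counts of Apoc4 and the single wild-type basal count of Angptl4 limit theirs.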
